A study of Mus musculus with 12 samples.

Results

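The circadian clock of a mammalian cell is a feedback loop of transcription factors, and its 10 core and output genes *Arntl*, *Clock*, *Per1*, *Per2*, *Per3*, *Cry1*, *Cry2*, *Nr1d1*, *Nr1d2* and *Dbp* were followed here in RNA-seq libraries of sorted mouse lung cells. The members were the rows of the deposited tables that carry these 10 gene names, 10 of 40760 genes, and each name matched a single row. All 10 were among the 17418 genes with enough counts to be tested. The study asked how the loss of the receptor PEAR1 changes lung fibroblasts in bleomycin fibrosis, and bleomycin (bleo) is a drug that injures the lung and is used to model fibrosis in mice.

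The 12 libraries fell into 4 groups of 3, WT and *Pear1*-/- mice each with vehicle or with bleo. All came from lungs of male mice on a C57BL/6 background, aged 8 to 12 weeks by the methods of the study, and bleo was given as an aerosol into the trachea. The *Pear1*-/- mice carried a germline cassette between exons 6 and 7 of *Pear1*, so that every cell type carried the allele and not fibroblasts alone. Cells were sorted on Cd140a (Pdgfra), a surface receptor of lung fibroblasts. The mice lived in 12 h of light and 12 h of dark, but the hour at which lungs were taken and the number of mice behind a library were not given in the sources used here. The methods of the study place lung function and pathology on day 21 after bleo, but do not tie that day to these libraries. Treatment and hour of collection, if that hour differed between groups, cannot be told apart in these data. The labels do not say that replicates came from separate animals, so the p-values measure the spread between these libraries, which may be technical.

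The libraries held between 6702948 and 10447101 counted reads. WT vehicle replicate 2 stood apart from the other 2 libraries of its group, with a chi-square of the counts per degree of freedom of 21.2 and 21.8 against them and between 1.73 and 2.67 against the *Pear1*-/- vehicle libraries. The *Pear1*-/- vehicle libraries gave 1.44, 4.31 and 4.82 among themselves. Pairs within either bleo group gave 1.35 to 1.49, a small spread on which the p-values of the bleo comparisons rest in part. The normalized counts of *Pear1* itself were 547 ± 28.8 among WT vehicle libraries and 519.7 ± 24.0 among *Pear1*-/- vehicle libraries (SD, n = 3), and these groups overlapped. They were 254 ± 14.0 among WT bleo and 357 ± 14.2 among *Pear1*-/- bleo libraries (SD, n = 3), higher in the libraries labelled as the knockout and without overlap (log2 fold change 0.48, adjusted p = 7.54e-05). By the methods of the study the cassette traps and truncates the *Pear1* transcript, while these counts cover the whole gene. *Pear1* counts therefore cannot settle the genotype labels, and *Pear1*-/- below means the libraries labelled so. All 8 fibroblast markers checked had reads in every library, but so did all 10 leukocyte, 6 endothelial and 8 epithelial markers.

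In the loop, the proteins of *Arntl* (also called *Bmal1*) and *Clock* form a dimer that binds E-boxes in DNA and switches on the *Per* and *Cry* genes. The PER and CRY proteins gather, return to the nucleus and block that dimer. The dimer also switches on *Nr1d1* and *Nr1d2*, which encode the receptors REV-ERB alpha and beta, repressors of *Arntl*, and *Dbp*, an activator that binds D-boxes and carries the rhythm to other genes. In a running clock the transcripts of *Dbp*, *Nr1d1* and the *Per* genes peak at other hours than that of *Arntl*, so a library taken at 1 hour shows 1 phase of the cycle.

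The letters these factors bind were looked up in the RefSeq promoter windows of assembly GRCm38.p6, which run from 250 bases before to 50 after an annotated start, on both strands. Windows were found for 9 of the 10 genes, 13 windows in all. The E-box CACGTG stood in 2 of the 13 and in 7.15% of all 32851 windows, and the E'-box CACGTT in 3 of the 13 and in 4.68% of all. The D-box TTATGTAA stood in 1 of the 13 and in 0.94% of all, and the half-site AGGTCA, which REV-ERB and ROR receptors share with other nuclear receptors, in 4 of the 13 and in 16.26% of all. These 4 motifs do not share letters at the places printed here.

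The 4 upstream sequences that follow are shown because they belong to genes that answered bleo differently, with both exact E-box matches beside a promoter with D-boxes and that of *Nr1d1*. They run 5′ to 3′ on the strand of the gene, and capitals mark the motifs named above or their other-strand form. *Nr1d1* (chr11:98775378-98775627, minus strand) has an E'-box 28 bases before its start, *Per3* (chr4:151044666-151044915, minus strand) D-boxes 205 and 158 bases before it, *Cry1* (chr10:85185065-85185304, minus strand) an E'-box at 79 and an E-box at 60 bases, and *Per1* (chr11:69098699-69098947, plus strand) an E-box at 166 and a half-site at 137 bases.
Nr1d1: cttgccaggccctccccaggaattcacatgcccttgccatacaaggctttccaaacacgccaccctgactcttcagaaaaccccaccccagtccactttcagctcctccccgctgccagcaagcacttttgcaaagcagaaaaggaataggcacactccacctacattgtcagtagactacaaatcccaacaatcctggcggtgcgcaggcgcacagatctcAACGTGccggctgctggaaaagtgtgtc
Per3: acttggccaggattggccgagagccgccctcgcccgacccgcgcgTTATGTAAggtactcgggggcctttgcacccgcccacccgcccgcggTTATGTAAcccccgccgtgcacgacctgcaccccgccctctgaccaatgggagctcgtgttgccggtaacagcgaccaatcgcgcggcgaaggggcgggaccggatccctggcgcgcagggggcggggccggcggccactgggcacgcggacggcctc
Cry1: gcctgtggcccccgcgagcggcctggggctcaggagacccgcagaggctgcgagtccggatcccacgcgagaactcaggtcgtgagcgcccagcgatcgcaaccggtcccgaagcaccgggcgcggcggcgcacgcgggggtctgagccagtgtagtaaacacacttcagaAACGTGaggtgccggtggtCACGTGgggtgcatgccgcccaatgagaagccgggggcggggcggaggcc
Per1: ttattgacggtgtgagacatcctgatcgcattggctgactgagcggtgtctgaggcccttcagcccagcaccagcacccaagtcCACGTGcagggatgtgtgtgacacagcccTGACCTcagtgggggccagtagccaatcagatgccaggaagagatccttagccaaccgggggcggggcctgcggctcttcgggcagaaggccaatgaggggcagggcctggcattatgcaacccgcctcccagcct
A match of letters is a description of the sequence only, and no binding was measured in these cells.

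Setting WT bleo against WT vehicle asked which clock genes differed in the sorted cells of injured lungs. *Nr1d1*, *Nr1d2*, *Dbp*, *Per3*, *Cry2* and *Per2* fell after bleo, *Nr1d1* the most, at 17.0-fold lower. *Arntl*, *Clock*, *Per1* and *Cry1* did not pass the test, and none of the 10 was called higher. A gene was called when its adjusted p in edgeR's quasi-likelihood test was under 0.05. The count of 6 lower stands beside a background of 36.5% of all tested genes called lower, and the count of 0 higher beside 31.4% called higher (1 of the 10 was higher and 6 lower at an unadjusted p under 0.05). All 6 also passed a fold change above 2, as did 33.8% of all tested genes. The median log2 fold change of the 10 was -1.37, against -0.07 over all tested genes.

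**Figure D1:**
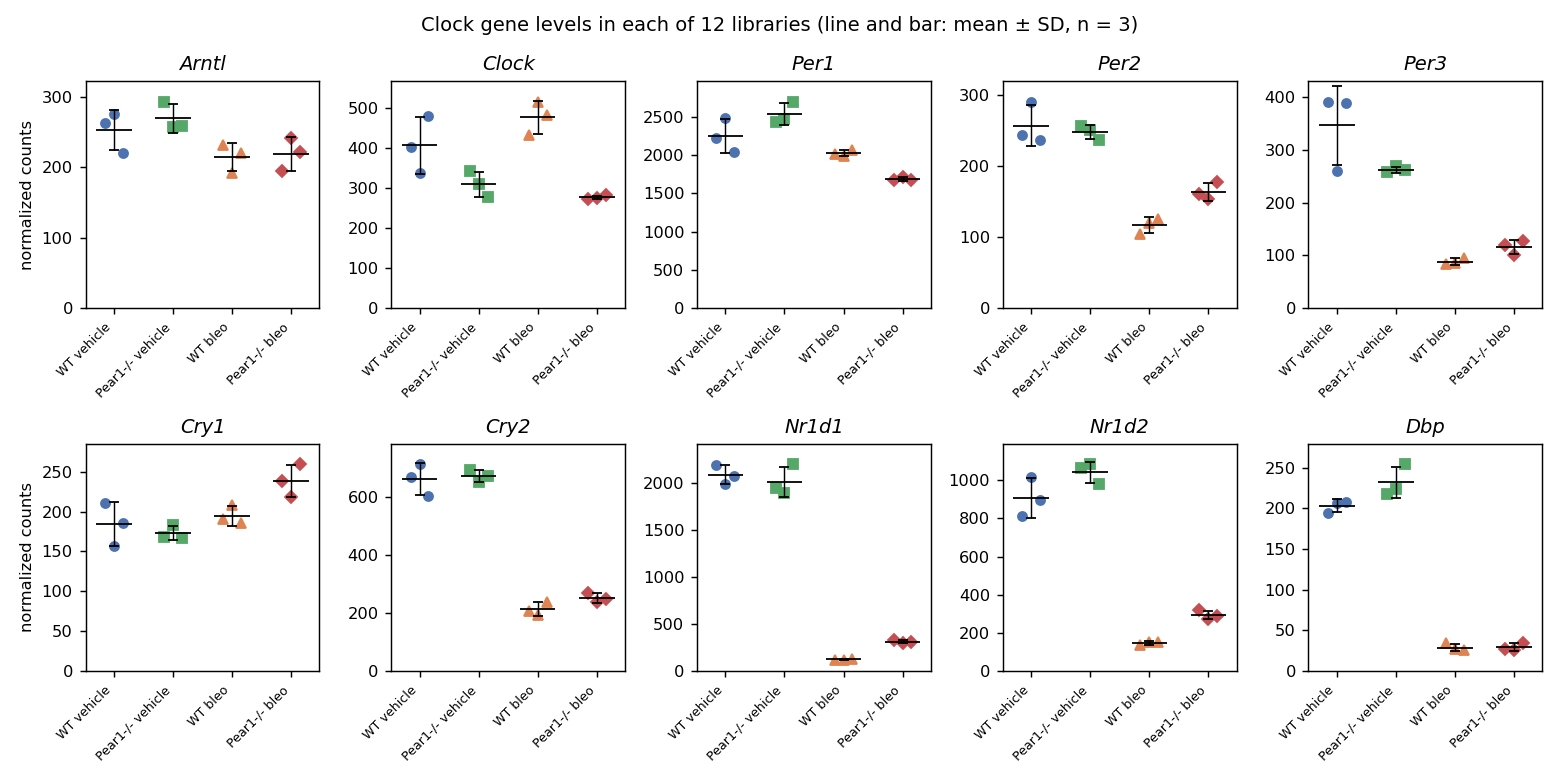
Normalized counts (vertical axes, from 0) of the 10 clock genes in each of the 12 libraries, by group (horizontal axes), with the group mean and SD as lines and bars, n = 3. Nr1d1 sits between 1889.7 and 2195 in both vehicle groups, at 115 to 129.6 in WT bleo and at 294 to 329 in Pear1-/- bleo, while the Arntl libraries of the 4 groups lie between 193 and 294.

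*Arntl* (ENSMUSG00000055116, GRCm38 chromosome 7, 113207465 to 113314126), the activator that the loop cannot do without, had 263, 276 and 221 normalized counts in the 3 WT vehicle libraries and 231, 193 and 221 in WT bleo. The ranges of the groups met, and the log2 fold change was -0.23 (SE 0.112, adjusted p = 0.0823). Without WT vehicle replicate 3 it was -0.31 (adjusted p = 0.0264). The *Pear1*-/- libraries had 294, 257 and 259 with vehicle and 194, 242 and 222 with bleo. All 3 bleo libraries lay under the vehicle ones here, with a log2 fold change of -0.29 (SE 0.109, adjusted p = 0.0251), a small difference whose call was lost in 5 of the other fits. It was lost without *Pear1*-/- vehicle replicate 1, *Pear1*-/- bleo replicate 1 or *Pear1*-/- bleo replicate 3, at adjusted p = 0.116, 0.134 and 0.0595.

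*Clock* (ENSMUSG00000029238, chromosome 5, 76209868 to 76304792), the partner of *Arntl*, behaved apart from it. *Clock* had 403, 337 and 479.7 normalized counts in WT vehicle and 432, 515 and 481 in WT bleo, against 341, 309 and 277 in *Pear1*-/- vehicle and 273, 276 and 281 in *Pear1*-/- bleo. The WT groups overlapped, as did the *Pear1*-/- groups, while every WT bleo library stood above every *Pear1*-/- bleo library. *Clock* was 1.73-fold lower in *Pear1*-/- bleo than in WT bleo (log2 fold change -0.79, SE 0.112, adjusted p = 1.0e-05). Between WT bleo and WT vehicle its log2 fold change was 0.24 (SE 0.111, adjusted p = 0.0622), and it passed the threshold in 9 of the other fits, with values between 0.28 and 0.38. It passed, for example, without WT vehicle replicate 3 (adjusted p = 0.00393), without WT bleo replicate 1 (0.0146) and without any single *Pear1*-/- library (0.0203 to 0.0296).

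Of the *Per* genes, which encode the period repressors, *Per1* had the highest level and the smallest difference in WT. *Per1* (ENSMUSG00000020893, chromosome 11, 69095217 to 69109960) had 2223, 2492 and 2045 normalized counts in WT vehicle and 2017, 1994 and 2074 in WT bleo, with overlap of the groups and a log2 fold change of -0.14 (SE 0.074, adjusted p = 0.102). DESeq2's Wald test called it at -0.17 (adjusted p = 0.0381), and leaving out WT vehicle replicate 3 gave -0.20 (adjusted p = 0.0277). In the *Pear1*-/- libraries *Per1* had 2438, 2470.4 and 2699.9 in vehicle and 1675, 1717 and 1674 in bleo, without overlap. It fell 1.5-fold there (log2 fold change -0.58, SE 0.074, adjusted p = 1.77e-06).

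*Per2* (ENSMUSG00000055866, chromosome 1, 91415982 to 91459324) had 244, 290.2 and 236 normalized counts in WT vehicle and 105, 120.3 and 126 in WT bleo, against 257, 250.5 and 237 in *Pear1*-/- vehicle and 159.8, 153 and 177 in *Pear1*-/- bleo. Both bleo groups lay under both vehicle groups, with WT bleo the lowest. *Per2* fell 2.19-fold in WT (log2 fold change -1.13, SE 0.112, adjusted p = 4.79e-08) and 1.52-fold in the *Pear1*-/- libraries (-0.60, SE 0.106, adjusted p = 7.55e-05).

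*Per3* (ENSMUSG00000028957, chromosome 4, 151003652 to 151044665), whose promoter holds the D-boxes printed above, had 392, 259.8 and 389 normalized counts in WT vehicle and 258, 269 and 262 in *Pear1*-/- vehicle. WT vehicle replicate 2 sat with the *Pear1*-/- libraries and not with the others of its label. After bleo *Per3* had 83.6, 85.7 and 95.2 in WT and 119.9, 101 and 127 in *Pear1*-/- libraries. *Per3* fell 3.89-fold in WT (log2 fold change -1.96, SE 0.146, adjusted p = 8.05e-10) and 2.26-fold in the *Pear1*-/- libraries (-1.18, SE 0.141, adjusted p = 7.75e-07).

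The cryptochromes *Cry1* and *Cry2*, the strongest repressors of the loop, went separate ways. *Cry1* (ENSMUSG00000020038, chromosome 10, 85131700 to 85185064) had 211, 156 and 185 normalized counts in WT vehicle and 190.1, 208 and 185 in WT bleo, with a log2 fold change of 0.09 (SE 0.115, adjusted p = 0.480). In the *Pear1*-/- libraries it had 169, 183 and 167 in vehicle and 238, 218 and 259 in bleo, and rose 1.38-fold (0.47, SE 0.111, adjusted p = 0.00128). *Cry1* was the only one of the 10 genes called higher after bleo in either pair of groups.

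*Cry2* (ENSMUSG00000068742, chromosome 2, 92403646 to 92434043) had 669, 713 and 603 normalized counts in WT vehicle and 208, 194 and 239 in WT bleo, against 695, 653 and 673 in *Pear1*-/- vehicle and 269.9, 239 and 247 in *Pear1*-/- bleo. The vehicle groups stood well clear of the bleo groups. *Cry2* fell 3.07-fold in WT (log2 fold change -1.62, SE 0.092, adjusted p = 1.25e-11) and 2.67-fold in the *Pear1*-/- libraries (-1.41, SE 0.090, adjusted p = 1.02e-10). Its exons share 295 bases, 4.67% of their length, with the transcript D930015M05Rik on the other strand, which had log2 fold changes of -2.20 in WT and -1.10 in the *Pear1*-/- libraries (adjusted p = 4.88e-04 and 0.052).

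*Nr1d1* (ENSMUSG00000020889, chromosome 11, 98767932 to 98775333), which encodes REV-ERB alpha, had 2190.2, 1988 and 2073 normalized counts in WT vehicle and 120.3, 115 and 129.6 in WT bleo, against 1938, 1889.7 and 2195 in *Pear1*-/- vehicle and 329, 294 and 309.8 in *Pear1*-/- bleo. The vehicle groups overlapped, and the bleo groups stood apart from them and from each other. *Nr1d1* fell 17.0-fold in WT (log2 fold change -4.08, SE 0.091, adjusted p = 1.56e-17) and 6.44-fold in the *Pear1*-/- libraries (-2.69, SE 0.082, adjusted p = 2.40e-15). Its exons share 263 bases, 8.55% of their length, with *Thra* on the other strand, and the counting is not stated to use strand. *Thra* differed by -1.03 on the log2 scale in WT and by -0.17 in the *Pear1*-/- libraries (adjusted p = 5.76e-06 and 0.293). *Thra* was also higher in *Pear1*-/- bleo than in WT bleo, by 0.58 (adjusted p = 0.00368), with an interaction of 0.86 (adjusted p = 0.00277), the same signs as *Nr1d1* has in those comparisons given further on. The part of shared reads in either gene's values was not tested.

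*Nr1d2* (ENSMUSG00000021775, chromosome 14, 18204054 to 18239127), the gene of REV-ERB beta, had 811, 1017 and 895 normalized counts in WT vehicle and 135, 149.9 and 154 in WT bleo, against 1063, 1084 and 979 in *Pear1*-/- vehicle and 317, 273 and 289 in *Pear1*-/- bleo. Its libraries were ordered like those of *Nr1d1* after bleo, with the *Pear1*-/- libraries above the WT ones. *Nr1d2* fell 6.16-fold in WT (log2 fold change -2.62, SE 0.097, adjusted p = 2.17e-14) and 3.55-fold in the *Pear1*-/- libraries (-1.83, SE 0.090, adjusted p = 2.47e-12).

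*Dbp* (ENSMUSG00000059824, chromosome 7, 45705088 to 45710203), the output factor, had 194, 207 and 208 normalized counts in WT vehicle and 34.0, 26.5 and 25.3 in WT bleo, against 218, 224 and 254 in *Pear1*-/- vehicle and 27.5, 25.8 and 34.3 in *Pear1*-/- bleo. The 2 bleo groups covered nearly the same range, far under the vehicle groups. *Dbp* fell 6.99-fold in WT (log2 fold change -2.81, SE 0.151, adjusted p = 5.48e-12) and 7.92-fold in the *Pear1*-/- libraries (-2.99, SE 0.145, adjusted p = 2.02e-12). Its exons share 539 bases, 18.01% of their length, with *Sphk2* on the other strand, which differed by 0.13 and -0.29 on the log2 scale in the same comparisons (adjusted p = 0.504 and 0.130).

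In all, the *Pear1*-/- bleo libraries had 8 of the 10 genes lower and 1 higher than the *Pear1*-/- vehicle libraries, against 33.1% of all tested genes called lower and 29.1% called higher. Of the 10, 5 passed a fold change above 2 (*Per3*, *Cry2*, *Nr1d1*, *Nr1d2* and *Dbp*), as did 27.7% of all tested genes. The median log2 fold change was -0.89, against -0.05 over all tested genes. *Clock* was the gene that did not pass, at -0.16 (SE 0.115, adjusted p = 0.240).

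**Figure D2:**
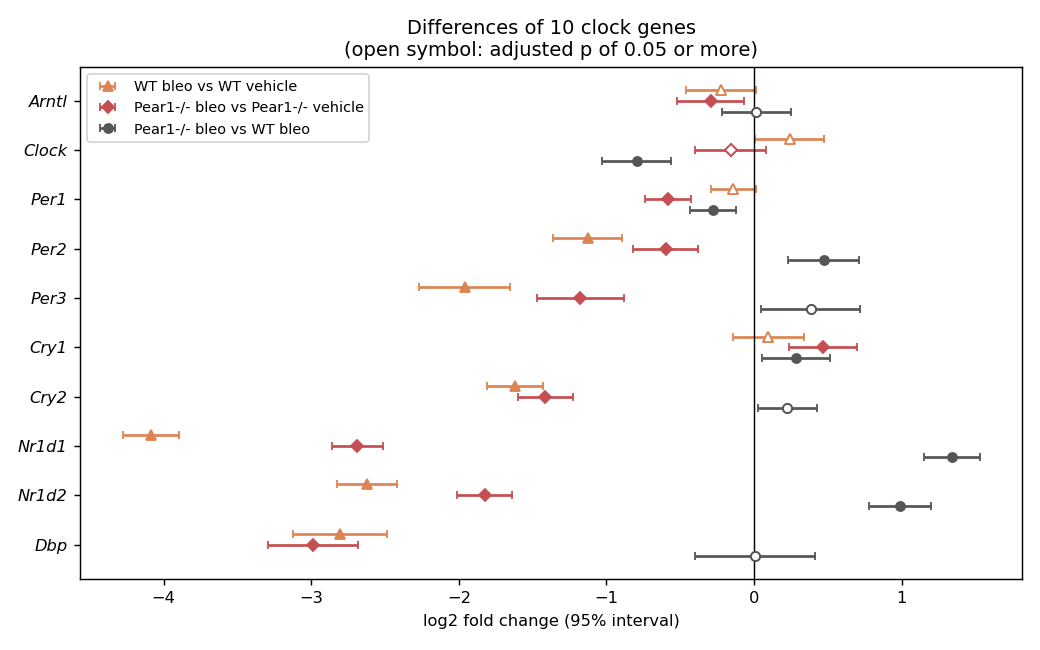
Log2 fold changes (horizontal axis) of the 10 clock genes (vertical axis) in 3 comparisons, with 95% intervals from 3 libraries a group, and open symbols where the adjusted p was 0.05 or more. Nr1d1 reaches -4.08 in WT and -2.69 in the Pear1-/- libraries, and Dbp lies at -2.81 and -2.99.

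The sorted cells also differed in other markers between the groups. The summed normalized counts of the 10 leukocyte markers ranged from 19366 to 25331 in WT vehicle and from 105446 to 106987 in WT bleo, against 24877 to 26234 in *Pear1*-/- vehicle and 47907 to 49188 in *Pear1*-/- bleo. The sums of the 8 fibroblast markers, 3 of them collagens, ranged over 118296 to 141722, 108427 to 109465, 141703 to 145031 and 287052 to 296462 in the same order. Those of the 8 epithelial markers were 37939 to 55685, 14270 to 14485, 52360 to 61520 and 6399 to 6505. For the 6 endothelial markers they were 3326 to 3989, 2029 to 2168, 3869 to 4226 and 1964 to 2146. Single genes weigh heavily in such sums, as *Lyz2* with a mean of 74718 in WT bleo, where the leukocyte sum had a mean of 105977. Of the fibroblast markers, 6 were lower and 2 higher in WT bleo than in WT vehicle, and 4 were lower and 4 higher in *Pear1*-/- bleo than in *Pear1*-/- vehicle. *Pdgfra*, the gene of the receptor sorted on, was lower by both comparisons, with log2 fold changes of -1.74 (adjusted p = 4.53e-14) and -0.80 (adjusted p = 5.16e-09). The 4 that were higher in the second comparison were *Col1a1*, *Col1a2*, *Col3a1* and *Pdgfrb*, named after their values were seen. In WT bleo 7 of the 10 leukocyte markers were higher and 2 lower than in WT vehicle, and 6 of 6 endothelial and 6 of 8 epithelial markers were lower. In *Pear1*-/- bleo 5 leukocyte markers were higher and 3 lower than in *Pear1*-/- vehicle, and 6 of 6 endothelial and 7 of 8 epithelial markers were lower. Over all tested genes 31.4% were called higher and 36.5% lower in the WT pair, and 29.1% and 33.1% in the *Pear1*-/- pair. The part of these shifts in the clock gene differences was not tested. In bulk RNA, fewer cells of a type and less RNA per cell cannot be told apart.

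*Pear1*-/- bleo was set against WT bleo to ask whether the clock genes differed between the labelled genotypes in injured lungs. *Nr1d1* was 2.53-fold higher in the *Pear1*-/- libraries (log2 fold change 1.34, SE 0.090, adjusted p = 5.56e-10) and *Nr1d2* 1.99-fold higher (0.99, SE 0.10, adjusted p = 1.45e-07). *Per2* was 1.39-fold higher (0.47, SE 0.115, adjusted p = 0.00233), *Cry1* 1.21-fold higher and *Clock* lower, as given above. *Per1* was 1.21-fold lower (-0.28, SE 0.074, adjusted p = 0.00477), a call lost without WT bleo replicate 3 or *Pear1*-/- bleo replicate 3 (adjusted p = 0.0511 in both). These are 4 genes higher and 2 lower, against 22.1% and 24.0% of all tested genes. Only *Nr1d1* passed a fold change above 2, as did 15.0% of all tested genes. In the same comparison 8 of the 10 leukocyte markers were lower and 6 of the 8 fibroblast markers higher. Of the 6 endothelial markers 2 were higher and 2 lower. Of the 8 epithelial markers 4 were lower and 1 higher, and their summed normalized counts were 14270 to 14485 in WT bleo and 6399 to 6505 in *Pear1*-/- bleo, without overlap. *Sftpc* and *Scgb1a1* held the largest counts in these sums, with means of 6394 and 5326 in WT bleo and 1610 and 3331 in *Pear1*-/- bleo. The part of these markers in the clock gene differences was not tested.

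The *Cry1* difference between the bleo groups was 0.28 on the log2 scale (SE 0.110, adjusted p = 0.0433). The call was lost in 12 of the other fits, DESeq2 among them (adjusted p = 0.0706), and without any single *Pear1*-/- vehicle or WT bleo library or *Pear1*-/- bleo replicate 1 or 3 (adjusted p between 0.0531 and 0.198). *Per3* and *Cry2* did not pass, at 0.38 (SE 0.159, adjusted p = 0.0566) and 0.22 (SE 0.095, adjusted p = 0.0613). *Per3* passed without WT vehicle replicate 2, WT vehicle replicate 3 or *Pear1*-/- bleo replicate 2 (adjusted p = 0.00922, 0.0482 and 0.0346), and *Cry2* without WT vehicle replicate 2 or WT bleo replicate 3 (0.0405 and 0.0489). Both also passed when only the bleo groups were fitted (adjusted p = 0.00492 and 0.0138), a fit that called 6 of the 10 genes higher and 2 lower, against 33.2% and 32.8% of the 14922 genes it tested. *Per3* passed in 6 of the other fits in all. *Dbp* differed by 0.0047 on the log2 scale with a 95% interval from -0.40 to 0.41, and *Arntl* by 0.02 with an interval from -0.22 to 0.25. With 3 libraries a group, differences within those bounds were not excluded for these 2 genes.

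Whether bleo acted differently by labelled genotype was tested with the interaction of genotype and bleo, the difference of the 2 bleo effects. The fall was smaller in the *Pear1*-/- libraries for *Nr1d1*, *Nr1d2*, *Per3* and *Per2*. For *Per1*, whose fall was called in the *Pear1*-/- libraries and not in WT, the interaction was negative. The interaction was 1.40 for *Nr1d1* (SE 0.117, adjusted p = 3.80e-08), 0.80 for *Nr1d2* (SE 0.131, adjusted p = 1.0e-04), 0.78 for *Per3* (SE 0.205, adjusted p = 0.00559) and -0.44 for *Per1* (SE 0.105, adjusted p = 0.00273). For *Per2* it was 0.53 (SE 0.154, adjusted p = 0.0115). These are 4 genes with a positive and 1 with a negative interaction, against 17.8% and 19.3% of all tested genes, and 1 of them (*Nr1d1*) passed a fold above 2, against 15.5%. Among the markers, 8 of the 10 leukocyte genes had a negative interaction and 0 a positive one. Of the 8 fibroblast markers 5 were positive and 0 negative. Of the 8 epithelial markers 4 were negative and 0 positive, and of the 6 endothelial markers 2 and 0. The part of these markers in the clock gene interactions was not tested. *Dbp*, with an interaction of -0.18 (95% interval from -0.65 to 0.29), and *Cry2*, with 0.21 (from -0.06 to 0.47), did not pass. *Clock* stood at -0.40 (adjusted p = 0.0575) and passed in 7 of the other fits, among them without WT vehicle replicate 2 or 3, *Pear1*-/- vehicle replicate 2 or 3, WT bleo replicate 1 or *Pear1*-/- bleo replicate 3. *Cry1* stood at 0.37 (adjusted p = 0.0754) and passed without WT vehicle replicate 2 (adjusted p = 0.0247).

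The *Per2* interaction was the least firm of the 5. Its call was lost when low-count genes were kept (adjusted p = 0.0683) and without WT vehicle replicate 2, *Pear1*-/- vehicle replicate 2 or 3, WT bleo replicate 1 or 2, or *Pear1*-/- bleo replicate 1 or 3, at adjusted p between 0.0542 and 0.106. The value without WT vehicle replicate 2, the library that stood apart, was 0.34.

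**Figure D3:**
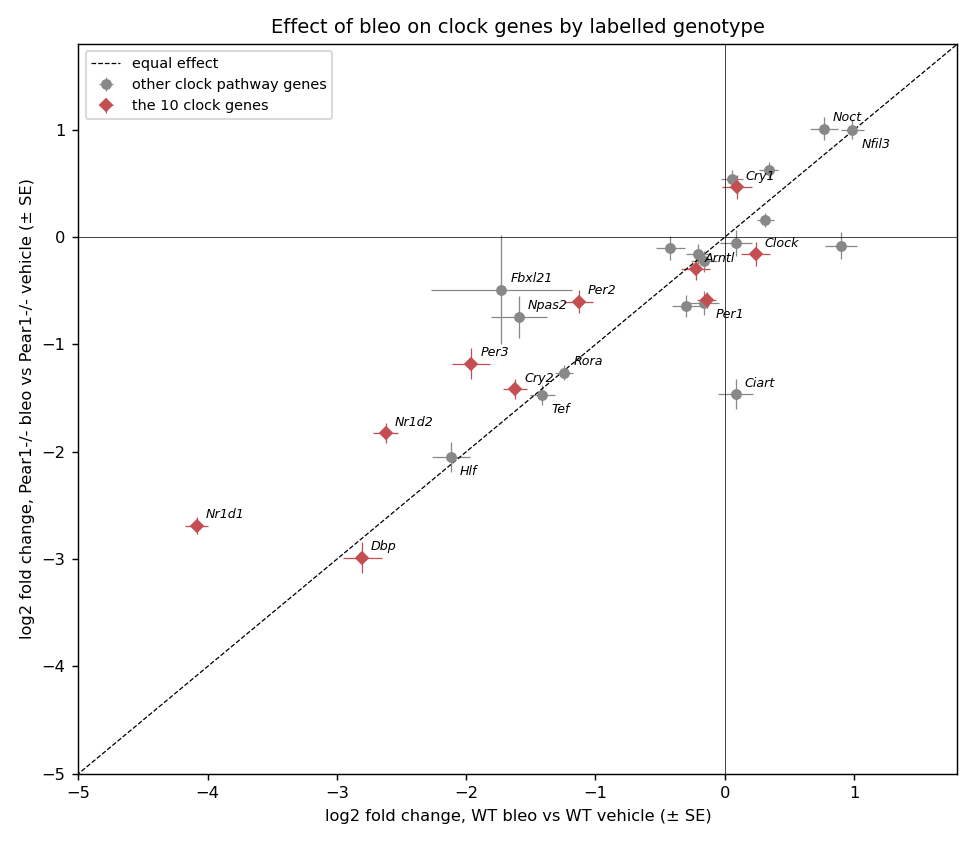
Effect of bleo in the Pear1-/- libraries (vertical axis) against its effect in WT (horizontal axis), both as log2 fold change with SE bars, for the 10 clock genes (diamonds) and 18 other clock pathway genes (circles), with a dashed line of equal effect. Nr1d1, Nr1d2, Per3 and Per2 lie above the line, Dbp and Cry2 near it, and Ciart below it. The other 2 genes of the list of 20 are not drawn, among them Rorb with 0 to 1 counts in Pear1-/- bleo.

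The comparison of *Pear1*-/- vehicle with WT vehicle served as the baseline of genotype without injury, and both vehicle groups are the controls of the bleo comparisons above. Only *Clock* was called, 1.32-fold lower in the *Pear1*-/- libraries (log2 fold change -0.40, SE 0.114, adjusted p = 0.0437), and that call was lost in 15 of the other fits. The count of 1 lower and 0 higher stands beside 5.29% of all tested genes called lower and 1.95% called higher, with 2 of the 10 higher and 2 lower at an unadjusted p under 0.05 in edgeR. None of the 10 passed a fold change above 2, as did 3.32% of all tested genes. Without WT vehicle replicate 2, 5 genes were called, namely *Clock* and *Per3* lower and *Per1*, *Nr1d2* and *Dbp* higher, while that fit called 29.7% of its 20405 tested genes lower and 25.5% higher. Those values were -0.50 for *Per3* (adjusted p = 1.54e-05), 0.32 for *Per1* (9.63e-06), 0.36 for *Nr1d2* (3.28e-05) and 0.27 for *Dbp* (0.0473). In each of the other 11 fits that left out 1 library, edgeR called no member (2 to 4 at an unadjusted p under 0.05). DESeq2, edgeR with RLE factors and a fit that kept low-count genes each called 1 member, which was not *Clock* in every one.

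Levels of different genes were set side by side as normalized counts per kilobase of exon, with exon lengths from GENCODE M21. In WT vehicle the order ran from *Nr1d1* at 677 ± 33.0 (SD, n = 3) over *Per1* at 400.1 ± 40.0, *Nr1d2* at 168 ± 19.1, *Cry2* at 105 ± 8.76 and *Dbp* at 67.9 ± 2.64 to *Cry1* at 55.2 ± 8.20. The ranges of these neighbours did not overlap, while *Cry1*, *Per2*, *Per3*, *Arntl* and *Clock*, the last at 29.6 ± 5.21, each overlapped the next. In WT bleo *Per1* led at 360.2 ± 7.38, followed by *Cry1* at 58.2 ± 3.59 and *Nr1d1* at 39.6 ± 2.36. From *Nr1d1* down to *Nr1d2*, at 27.0 ± 1.84, each neighbour overlapped the next, with *Clock*, *Cry2* and *Arntl* between them.

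In *Pear1*-/- vehicle the order matched that of WT vehicle down to *Per2*, with *Nr1d1* at 652 ± 53.2 and *Clock* last at 22.5 ± 2.32 per kilobase, and no neighbours overlapped. In *Pear1*-/- bleo *Per1* led at 299.9 ± 4.43 per kilobase, and *Nr1d1* was second at 101 ± 5.62, ahead of *Cry1* at 71.4 ± 6.13 and *Nr1d2* at 54.2 ± 4.09. *Dbp* and *Per3* were the lowest of the 10 in both bleo groups, at 9.56 ± 1.57 and 9.17 ± 0.643 in WT bleo and at 9.76 ± 1.51 and 12.1 ± 1.36 in *Pear1*-/- bleo.

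A ratio of 2 genes within a library does not depend on the scaling between libraries. The log2 ratio of *Arntl* to *Dbp* counts was 0.31 ± 0.20 in WT vehicle and 2.92 ± 0.18 in WT bleo, against 0.22 ± 0.20 in *Pear1*-/- vehicle and 2.91 ± 0.28 in *Pear1*-/- bleo (SD, n = 3). The bleo groups thus met in this ratio. The log2 ratio of *Arntl* to *Nr1d1* was -3.05 ± 0.19, 0.82 ± 0.11, -2.90 ± 0.18 and -0.51 ± 0.24 in the same order. The WT bleo libraries were thus the highest in this ratio and the *Pear1*-/- bleo libraries the next. Exon length differs between the genes, so the sign of a count ratio is no order of levels, and per kilobase *Nr1d1* stood above *Arntl* in every group, at 39.6 against 28.6 in WT bleo. These ratios are descriptions, since the genes were chosen with the results known.

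**Figure D4:**
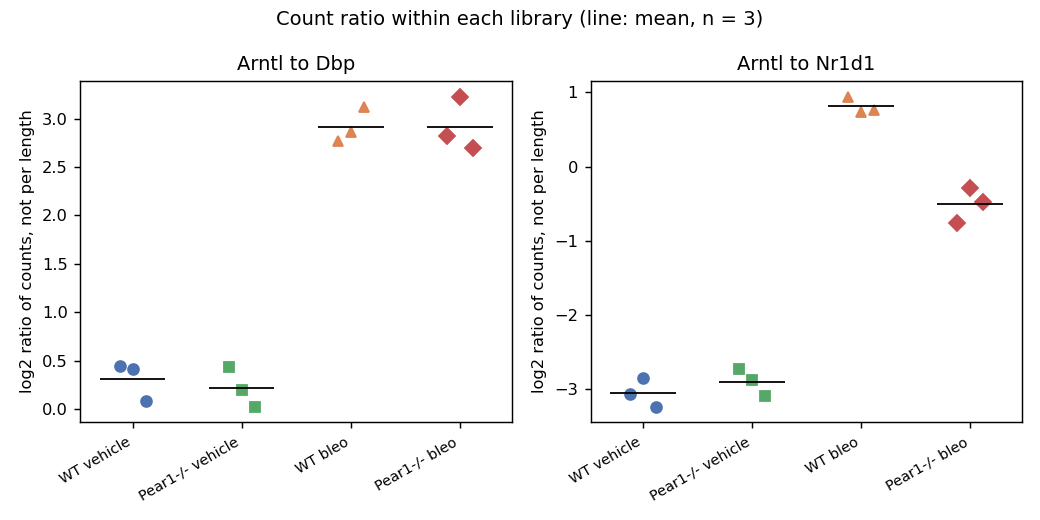
Log2 ratio of Arntl to Dbp counts (left) and of Arntl to Nr1d1 counts (right) on the vertical axes, in each library by group, with the group mean as a line. The left ratio is between 2.69 and 3.23 in all 6 bleo libraries, while the right one is between 0.74 and 0.94 in WT bleo and between -0.76 and -0.28 in Pear1-/- bleo. The counts are not divided by gene length.

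The clock pathway holds further regulators, partners and outputs, and a list of 20 of them was examined, all 20 with enough counts to be tested. In WT bleo 5 of the 20 were higher and 9 lower than in WT vehicle, against 31.4% and 36.5% of all tested genes. Of the 9, 7 passed a fold above 2, and 0 of the 5 did, where 33.8% of all tested genes passed it. The median log2 fold change was -0.18. In *Pear1*-/- bleo 5 were higher and 8 lower than in *Pear1*-/- vehicle, against 29.1% and 33.1% of all tested genes, with a median of -0.36. Between *Pear1*-/- bleo and WT bleo 6 were higher and 3 lower, against 22.1% and 24.0% of all tested genes. Leaving out 1 library gave 3 to 6 higher and 2 to 4 lower there. Between the vehicle groups 2 were higher (*Ciart* and *Nfil3*) and 0 lower in edgeR, against 1.95% and 5.29%. Without WT vehicle replicate 2 this last count was 9 higher and 2 lower, against 25.5% and 29.7% of the 20405 genes that fit tested. In the other 11 fits that left out 1 library it was 0 or 1. The *Nfil3* call was lost in 11 of the 12 fits. The background shares are those given above.

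*Hlf* and *Tef*, which encode relatives of DBP that bind the same D-boxes, fell in both pairs of groups like *Dbp*. *Hlf* had 182, 141 and 169 normalized counts in WT vehicle and 37.7, 39.8 and 34.4 in WT bleo, against 169, 165 and 167 in *Pear1*-/- vehicle and 36.4, 41.3 and 42.9 in *Pear1*-/- bleo. *Hlf* differed by -2.12 on the log2 scale in WT (SE 0.148, adjusted p = 2.91e-10) and by -2.05 in the *Pear1*-/- libraries (SE 0.142, adjusted p = 4.05e-10), and *Tef* by -1.41 and -1.47 (adjusted p = 2.07e-10 and 1.10e-10). *Nfil3*, which encodes a repressor at D-boxes, rose in both, by 0.99 and 1.0 on the log2 scale (adjusted p = 1.47e-08 and 1.49e-08). The interactions of *Hlf*, *Tef* and *Nfil3* were 0.07, -0.06 and 0.02 and did not pass, but that of *Nfil3* was -0.22 without WT vehicle replicate 2 and then passed (adjusted p = 0.0199).

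*Rora* and *Rorb* encode activators that compete with REV-ERB at the same sites. *Rora* had 1049, 1131 and 1059 normalized counts in WT vehicle and 424, 461 and 474 in WT bleo, and fell, with log2 fold changes of -1.24 in WT (SE 0.071, adjusted p = 1.49e-11) and -1.26 in the *Pear1*-/- libraries (SE 0.071, adjusted p = 1.63e-11). *Rorb*, near the lower limit of counting, had 31, 9 and 37 counts in WT vehicle and 2, 4 and 1 in WT bleo, against 12, 14 and 4 in *Pear1*-/- vehicle and 0, 0 and 1 in *Pear1*-/- bleo. Replicate 2 of WT vehicle was the low one of its group.

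*Npas2*, which can stand in for *Clock*, had 88.5, 76.1 and 117 normalized counts in WT vehicle and 32.1, 27.5 and 32.4 in WT bleo, against 75.8, 91.8 and 97.1 in *Pear1*-/- vehicle and 40.0, 54.2 and 63.9 in *Pear1*-/- bleo. It fell in both pairs of groups, with log2 fold changes of -1.59 in WT (adjusted p = 2.82e-06) and -0.74 in the *Pear1*-/- libraries (adjusted p = 0.00291), with an interaction of 0.85 (SE 0.293, adjusted p = 0.0286) that was lost in 8 of the 12 fits without 1 library (adjusted p between 0.0589 and 0.126). *Fbxl21*, which encodes a ubiquitin ligase part that acts on CRY proteins, had 20, 8 and 22 counts in WT vehicle and 3, 10 and 4 in WT bleo, with overlap of the groups and a log2 fold change of -1.73 (SE 0.544, adjusted p = 0.00884), a call lost without WT bleo replicate 1 (adjusted p = 0.0528).

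*Ciart*, which encodes a repressor of the CLOCK and ARNTL dimer, took a course of its own. It had 150.4, 212 and 142 normalized counts in WT vehicle and 174, 160.1 and 199 in WT bleo, against 247, 238 and 242 in *Pear1*-/- vehicle and 83.5, 83.4 and 96.3 in *Pear1*-/- bleo. WT bleo overlapped WT vehicle, and *Pear1*-/- bleo was the lowest group and *Pear1*-/- vehicle the highest. The interaction was -1.55 (SE 0.194, adjusted p = 4.98e-06), opposite in sign to that of *Nr1d1*. *Ciart* was higher in *Pear1*-/- vehicle than in WT vehicle by 0.52 on the log2 scale (adjusted p = 0.0351), with WT vehicle replicate 2 nearest to the *Pear1*-/- libraries. That difference was 0.80 without this library (adjusted p = 1.53e-07), and the call was lost without either of the other 2 WT vehicle libraries or any 1 *Pear1*-/- vehicle library (adjusted p between 0.0866 and 0.189).

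The genes that follow were named after their values were seen. *Bhlhe40*, *Bhlhe41*, *Csnk1e* and *Tipin* were, beside *Npas2* and *Ciart*, the members of the list with an interaction that passed, at 0.29, -0.45, -0.98 and 0.49 on the log2 scale (adjusted p = 0.0434, 0.0354, 2.09e-04 and 0.00386). The *Bhlhe40* interaction was 0.079 without WT vehicle replicate 2 (adjusted p = 0.353), and its call was lost in 10 of the 12 fits that left out 1 library. That of *Bhlhe41* was lost in 7 of the 12 (adjusted p between 0.0594 and 0.0892) and that of *Tipin* without *Pear1*-/- bleo replicate 1 (0.0519), while those of *Csnk1e* and *Ciart* passed in all 12. With all 12 libraries 3 of the 20 genes had a positive and 3 a negative interaction that passed, against 17.8% and 19.3% of all tested genes. The list held 3 to 10 interactions that passed in the fits that left out 1 library. The 10 came without WT vehicle replicate 2, 4 positive and 6 negative, where 20.4% and 26.0% of the 20405 genes tested passed in those directions. *Csnk1e*, a kinase that marks PER proteins for decay, had 149, 129 and 135 normalized counts in WT vehicle and 239, 259 and 266 in WT bleo. It had 185, 141 and 135 in *Pear1*-/- vehicle and 142, 156 and 138 in *Pear1*-/- bleo, so that every WT bleo library lay above all others. *Noct*, whose transcript is a known rhythmic output, rose by 0.77 in WT and by 1.01 in the *Pear1*-/- libraries (adjusted p = 3.83e-06 and 9.08e-08).

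To see which other genes ran most like the 2 ends of the clock, profiles of log2 CPM (counts scaled to library size), each centred on its own mean, were compared over the 12 libraries among 10693 genes. The nearest to *Dbp* were *Igfbp6*, *Gstm1* and *Cybrd1*, with root mean square differences of 0.145, 0.168 and 0.171 where the *Dbp* profile itself had a root mean square of 1.42. Their log2 fold changes in WT were -2.65, -2.59 and -2.62. Among the nearest to *Arntl* were *Os9* and *Atg4b*, at 0.096 and 0.097 beside a root mean square of 0.176 for *Arntl*, a flat profile.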

How the data were processed

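Per the labels and the methods of the study, RNA of cells sorted on Cd140a was amplified with SMART-Seq v4, and reads were aligned with HISAT2 2.1 to GRCm38 (mm10) and then assigned to an mm10 reference transcriptome; the counting program and the release of that transcriptome were not given in the sources used here. The authors deposited whole-number read counts per gene, and a second table of normalized signal, which held the counts divided by 1 size factor per library.

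Counts were tested with edgeR 4.0.16 in R 4.3.3 (quasi-likelihood, TMM, edgeR's filter on low counts, 1 mean per group over all 12 libraries, Benjamini-Hochberg over 17418 genes); a call needed an adjusted p under 0.05. SE is the log2 fold change over the root of F. The alternatives were DESeq2 1.42.0, RLE factors, no filter, limma 3.58.1 on log2(normalized + 1), a replicate block, only the 2 groups compared, a fold above 2, and leaving out each library. The 10 members and all lists were chosen with earlier results of these data known. The other clock genes named first were from the 8 with the largest differences past a fold of 2; 1 of these 8 and 1 gene of the likeness are not reported here; the likeness needed a mean log2 CPM of at least 3. Library totals of 6702948 to 10447101 counts limit precision, and a floor of 3 counts was 0.287 to 0.448 CPM, for counting error only. Same-numbered replicates had correlations of deviations between -0.16 and 0.10 over 18 pairs, none over 0.1, so numbers were not taken as pairs.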

Additional observations from a re-analysis of the deposited data

Results flagged for a closer look

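The effect of bleo differed between the libraries labelled *Pear1*-/- and WT by edgeR's interaction term for 5 of the 10 clock genes, given as the effect in *Pear1*-/- minus that in WT on the log2 scale. It was positive for 4 and negative for 1, against 17.8% of all tested genes called positive and 19.3% called negative. It was 1.40 for *Nr1d1* and 0.80 for *Nr1d2*. For *Per3* it was 0.78 and for *Per2* 0.53. For *Per1* it was -0.44. Library composition differed between the same groups and its part was not tested.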

How the results depend on the processing

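All 27 calls of a clock gene in a comparison kept their direction in every other fit tried, and 439 of their values stayed on their side of the threshold and 42 did not. Requiring a fold above 2 was counted apart from these, and the counts of called genes were 5 between *Pear1*-/- bleo and *Pear1*-/- vehicle, 1 between *Pear1*-/- bleo and WT bleo, 0 between the vehicle groups and 1 for the interaction. Between the vehicle groups limma, the replicate block and a fit of only those 2 groups each called 0 (2, 3 and 2 at an unadjusted p under 0.05; DESeq2 called 1), and leaving out 1 library gave 0 to 5 calls. In the other comparisons leaving out 1 library gave 6 to 9 calls in WT bleo against WT vehicle, 8 to 9 in *Pear1*-/- bleo against *Pear1*-/- vehicle, 4 to 8 between the bleo groups (8 also with only those groups fitted) and 4 to 6 for the interaction. The replicate block kept the other counts at 6 in WT bleo against WT vehicle, 9 in *Pear1*-/- bleo against *Pear1*-/- vehicle, 6 between the bleo groups and 5 for the interaction; same-numbered libraries shared only a number.

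Signs turned only for log2 fold changes that were not called. Between the vehicle groups, keeping low-count genes gave 0.035 for *Per2*, 0.0083 for *Cry1* and 0.039 for *Nr1d1*. Leaving out 1 library there gave -0.0015 to 0.23 for *Arntl*, -0.11 to 0.12 for *Per2*, -0.13 to 0.016 for *Cry1*, -0.040 to 0.15 for *Cry2* and -0.085 to 0.036 for *Nr1d1*. It gave -0.20 to 0.0035 for *Per1* between WT bleo and WT vehicle, -0.073 to 0.083 for *Arntl* and -0.13 to 0.14 for *Dbp* between the bleo groups, and -0.22 to 0.016 for the *Arntl* interaction. The causes were not tested. With 3 libraries a group, differences within the printed intervals were not excluded.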
